A study of Mus musculus with 12 samples.

Results

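Prostaglandins are local lipid mediators made from arachidonic acid. The cyclooxygenases Ptgs1, broadly expressed, and Ptgs2, the inducible form, make the common precursor, which terminal synthases such as Ptges (prostaglandin E), Ptgds (prostaglandin D) and Ptgis (prostacyclin) convert to the active products. Prostaglandin F acts through Ptgfr, which signals through calcium, and prostaglandin E acts through Ptger1 to Ptger4, of which Ptger2 and Ptger4 raise cyclic AMP and Ptger3 lowers it. In the testis, Leydig cells both make and respond to prostaglandins, and signals of the prostaglandin F type have been tied to lower steroid output.

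The response of these 10 genes, 5 receptors and 5 synthesis enzymes, was followed in TM3 cells, a mouse Leydig cell line, exposed to methoxyacetic acid (MAA), the active metabolite of the solvent ethylene glycol monomethyl ether. The set was selected on measured values of these arrays, since Ptgfr had one of the largest decreases after 3 h, so for these 10 genes the 3 h values are given as a description without a test, and tests are given at 8 h and 24 h only. All 10 genes were found on the array through their RefSeq transcripts, with 12 of its 41174 probes, and are 10 of the 15972 genes that could be named there. MAA was given at 1 mM or at 5 mM, each over 3, 8 and 24 h, and untreated cells were kept alongside for every time. Each of the 6 treatments was hybridised against its time-matched untreated control on 2 arrays with the dyes swapped, and each array used its own pool of 3 treated cultures. MAA was labelled green on the first array and red on the second, so pool and dye orientation cannot be told apart. Control channels of the same time and array number differed between the 1 mM and 5 mM arrays by a median of 0.04 to 0.06 on the log2 scale, against 0.11 to 0.12 between array numbers, so controls were counted as 2 samples a time and not 4.

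Of the defining Leydig markers, Star, Cyp17a1 and Insl3 were well above background in all 12 control channels, whereas Lhcgr, Cyp11a1, Hsd3b1 and Hsd3b6 were so in none. Markers of other cells were mixed in the same way, with 3 of 7 Sertoli, 3 of 7 germ cell, 1 of 4 macrophage and 5 of 7 fibroblast or muscle markers well above background in all 12. Between 61.5% and 70.5% of probes were well above background per array and channel. In RNA of whole cultures, fewer cells of a kind and less RNA per cell cannot be told apart.

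Ptgfr, whose ratios were the lowest of the 10 genes at 5 mM for 3 h and 8 h, lies at chr3:151798610-151837528 on the minus strand of GRCm38.p6. It was read by probe A_52_P153019, and a separate probe, A_52_P707884, was designed on a cDNA clone that the study's array annotation also named Ptgfr but that RefSeq's table does not list, so it is given beside the members and not counted among them. Both are 60 bases long and share no run over 6 bases on either strand, so they are separate readings. The last 30 bases of the former, with a polyadenylation hexamer in capitals, and the first 30 of the latter, which holds none, show which stretches were read.
A_52_P153019: aatctgtgtggcttacgttcttggAATAAA
A_52_P707884: ctgttttctatggtcagaatataaagactg

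The 250 bases upstream of the annotated start of Ptgfr and of the prostaglandin E receptors Ptger2 and Ptger4 are shown because these receptors gave the largest decreases and the largest increase among the 10 genes. Capitals mark the GC box GGGCGG and the CCAAT box on either strand.
Ptgfr, chr3:151837529-151837778, minus strand: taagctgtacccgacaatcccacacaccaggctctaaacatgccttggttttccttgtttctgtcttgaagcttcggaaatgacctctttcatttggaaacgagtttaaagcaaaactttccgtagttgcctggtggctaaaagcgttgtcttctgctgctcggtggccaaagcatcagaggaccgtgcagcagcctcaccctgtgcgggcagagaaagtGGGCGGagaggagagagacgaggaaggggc
Ptger2, chr14:44987861-44988110, plus strand: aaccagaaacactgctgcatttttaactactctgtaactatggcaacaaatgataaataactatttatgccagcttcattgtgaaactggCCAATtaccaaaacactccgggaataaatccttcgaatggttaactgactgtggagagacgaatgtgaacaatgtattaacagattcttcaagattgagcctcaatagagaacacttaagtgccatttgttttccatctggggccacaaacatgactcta
Ptger4, chr15:5244188-5244437, minus strand: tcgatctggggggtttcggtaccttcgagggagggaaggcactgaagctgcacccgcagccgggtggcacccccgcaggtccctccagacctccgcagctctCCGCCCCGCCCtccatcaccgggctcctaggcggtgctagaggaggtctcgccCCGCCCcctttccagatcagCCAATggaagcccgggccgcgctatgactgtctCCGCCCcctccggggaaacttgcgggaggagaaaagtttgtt
The windows differed in base composition, with 52% G or C for Ptgfr, 38% for Ptger2 and 66.8% for Ptger4. The Ptgfr window held 1 GC box, beginning 30 bases before the start. The Ptger4 window held 4 GC boxes on the opposite strand, of which the 2 farthest from the start overlapped by 1 base, and a CCAAT box 75 bases before the start. The Ptger2 window held a CCAAT box 160 bases before the start and no GC box. Among all 32851 windows of this length in the RefSeq table, 32.7% held a GC box and 33.8% a CCAAT box. The EGR motif GCGTGGGCG, the TATA box as TATAAA, the E-box as CACGTG and the CRE core as TGACGT were also searched on both strands, and none of the 8 member genes with a window held one, against 0.536%, 12.4%, 6.02% and 6.47% of all windows.

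Ptgfr transcript was far lower in cells given 5 mM MAA at the early times and partly back at 24 h. Its scaled signal in the control channels, in arbitrary units, was 39.5 and 67.4 at 3 h on the 5 mM arrays, and the MAA channels read 2.91 and 6.71, both not well above background. The log2 MAA/control ratios were -3.76 and -3.33, which as a limit set by background is at least 3.73-fold lower. At 8 h the controls read 122 and 114 and the MAA channels 12.5 and 11.7, of which 1 was well above background. At 24 h the controls read 211 and 223 and the MAA channels 94.2 and 107. No MAA value overlapped a control value at any of the 3 times.

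The decrease passed the test at both later times. Ptgfr fell by 3.28 on the log2 scale at 8 h (SE 0.14, n = 2 arrays, limma adjusted p = 9.9e-06) and by 1.11 at 24 h (SE 0.14, n = 2, adjusted p = 7.4e-04). The response at 24 h was weaker than at 8 h by 2.17 log2 units (95% interval 1.72 to 2.62, adjusted p = 0.0017), with 1 of the 2 MAA channels at 8 h not well above background. These sizes depended on the background correction. With normexp and loess, which adds an offset of 50 to every signal, the values were -1.53 at 8 h and -0.73 at 24 h, the latter under the 2-fold limit, and the difference between times was 0.80, outside the interval above and still past the test. With 1 mM MAA the ratios were -0.43 and -0.91 at 3 h, -0.68 and -0.53 at 8 h, and -0.10 and -0.29 at 24 h. Only the 8 h value was called, at a mean of -0.60 (SE 0.14, n = 2, unadjusted p = 0.0026, adjusted p = 0.048), and it lay close to the 1.5-fold limit. That call was lost under normexp and loess (-0.41), with each array centred on its median ratio (-0.58), with slide as a block (-0.59), in a fit of the 1 mM arrays alone (-0.60), and under 6 of the 12 fits that left out 1 array, where the value ranged from -0.68 to -0.53. The 5 mM response exceeded the 1 mM response at 8 h by 2.68 log2 units (interval 2.23 to 3.13, adjusted p = 9.9e-04), and at 24 h by 0.91 (interval 0.46 to 1.36, adjusted p = 0.029). Under normexp and loess the 5 mM minus 1 mM differences were -1.12 at 8 h and -0.62 at 24 h, and both passed. The 24 h difference passed in only 4 of the 12 fits without 1 array, with values between 0.82 and 1.01.

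The cDNA probe gave log2 ratios of -2.78 and -3.31 at 5 mM for 3 h, of -3.52 and -4.09 at 8 h, and of -0.77 and -1.16 at 24 h. Its MAA channel was not well above background at 3 h and 8 h, where the limits were at least 2.15-fold and at least 7.23-fold lower. It fell at 8 h (adjusted p = 2.3e-05) and at 24 h (mean -0.97, SE 0.21, adjusted p = 0.01), the latter just under the 2-fold limit for a call. With normexp and loess its values were -1.15 and -0.50 at these times. At 1 mM for 3 h its MAA channel was at background on both arrays, so only a limit of at least 2.21-fold lower can be given. Its later values at 1 mM were -0.50 at 8 h and 0.09 at 24 h, and neither passed.

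**Figure D1:**
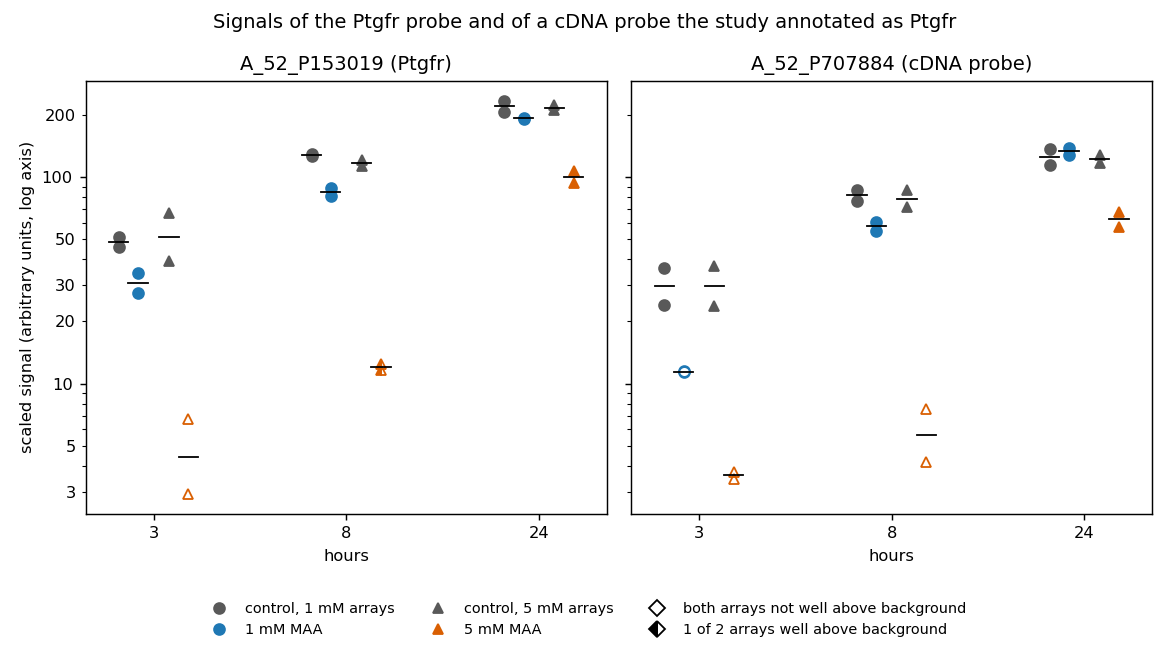
Scaled signals in arbitrary units on a log axis against hours of treatment for probe A_52_P153019 (Ptgfr, left) and the cDNA probe A_52_P707884 (right). Each point is 1 channel of 1 array and each bar the geometric mean of 2 arrays, with open symbols where neither array and left-filled symbols where 1 of 2 arrays was well above background. The 5 mM points lie below the controls at every time, and the controls read higher at 24 h than at 3 h.

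In untreated cells Ptgfr had geometric mean signals of 50.1 at 3 h, 123 at 8 h and 219 at 24 h over 4 channels each. The 24 h channels (207 to 235) did not overlap the 8 h channels (114 to 130). The difference of 0.83 log2 units between 24 h and 8 h narrowly missed the threshold (SE 0.18, n = 2 averaged controls a time, limma adjusted p = 0.054). Under quantile scaling of the channels it passed, at 0.84 with adjusted p = 0.046. Cells given 5 mM MAA had geometric means of 4.42, 12.1 and 100 at the same times, and cells given 1 mM had 30.7, 84.6 and 193, so signals were higher at the later times in all 3 conditions.

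The prostaglandin E receptors did not share 1 pattern. Ptger1, which signals through calcium, fell by 0.69 at 5 mM for 8 h (arrays -0.82 and -0.56, SE 0.12, adjusted p = 0.0034) and by 1.18 at 24 h (arrays -1.29 and -1.08, adjusted p = 2.9e-04), and only the 24 h value passed 2-fold. With normexp and loess the values were -0.27 and -0.54, and the 24 h call was lost on the fold limit alone (limma unadjusted p = 3.5e-04). Its 3 h ratios were -0.31 and -0.48. At 1 mM Ptger1 fell by 0.61 at 24 h (arrays -0.71 and -0.51, adjusted p = 0.018), a call lost under normexp and loess (-0.27), with centring (-0.58), with slide as a block (-0.55), in a fit of the 1 mM arrays alone (-0.61, past the fold limit but not the p limit), and without the first 1 mM array at 24 h (-0.51). The 8 h arrays at 1 mM read -0.33 and 0.04 and did not agree in sign. The difference between doses at 24 h was 0.57, with an interval of the 5 mM minus 1 mM value from -0.96 to -0.18, and did not pass (adjusted p = 0.085). In controls its geometric means were 35.0, 56.7 and 108 at 3, 8 and 24 h.

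Ptger2, one of the receptors that raise cyclic AMP, was near background early. At 3 h none of its channels was well above background, and control signals ran from 1.95 to 12.3. By 24 h the controls of the 5 mM arrays read 35.1 and 44.9 and the MAA channels 15.0 and 16.4, all well above background and not overlapping. Ptger2 fell by 1.34 at this time (arrays -1.22 and -1.45, SE 0.26, n = 2, adjusted p = 0.0065). With normexp and loess the value was -0.34 and was not called. Left with 1 of the 2 arrays of this treatment, the value was -1.45 or -1.22 and was no longer called. At 8 h the ratios were -1.35 and -1.43 (adjusted p = 0.0052), but both MAA channels and 1 of the 2 controls were at background, so the limit is at least 1.02-fold lower, and the call was lost without either array of this treatment (-1.43 and -1.35) and under normexp and loess (-0.26). At 1 mM its ratios were 0.78 and 0.20 at 8 h and -0.01 and -0.19 at 24 h, and neither mean passed. The doses differed by 1.88 at 8 h (interval of 5 mM minus 1 mM from -2.74 to -1.02, adjusted p = 0.021), a difference that was lost without any 1 of the 4 arrays at 8 h. Under normexp and loess it was -0.41 and still passed (limma adjusted p = 0.03). At 24 h the doses differed by -1.24 (interval -2.10 to -0.38), which did not pass (adjusted p = 0.089).

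Ptger4, the other receptor of the kind that raises cyclic AMP, went the opposite way. Its control channels on the 5 mM arrays read 92.3 and 91.9 at 3 h, 192 and 171 at 8 h, and 244 and 214 at 24 h. The MAA channels read 171 and 181, then 266 and 257, then 488 and 491, above the controls with no overlap at each time. Ptger4 rose by 0.53 at 8 h (SE 0.09, n = 2, adjusted p = 0.003) and by 1.10 at 24 h (adjusted p = 1.1e-04), and only the 24 h value passed 2-fold, which it missed under normexp and loess (0.97). The rise at 24 h exceeded that at 8 h by 0.57 (interval 0.28 to 0.87, adjusted p = 0.032), although this difference did not pass in 6 of the 12 fits without 1 array. At 1 mM the ratios at 24 h were -0.32 and -0.11 (adjusted p = 0.18), so the 5 mM response lay 1.31 above it (interval 1.02 to 1.61, adjusted p = 0.002). At 8 h the doses differed by 0.47 (interval 0.17 to 0.76, adjusted p = 0.059), a difference that passed under normexp and loess (0.37, adjusted p = 0.048).

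Ptger3, the receptor that lowers cyclic AMP, was not measurable here. Of its probes, A_52_P677744 was well above background in 2 of 24 channels and A_51_P520718 in 0 of 24, and the ratios therefore carry no level.

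**Figure D2:**
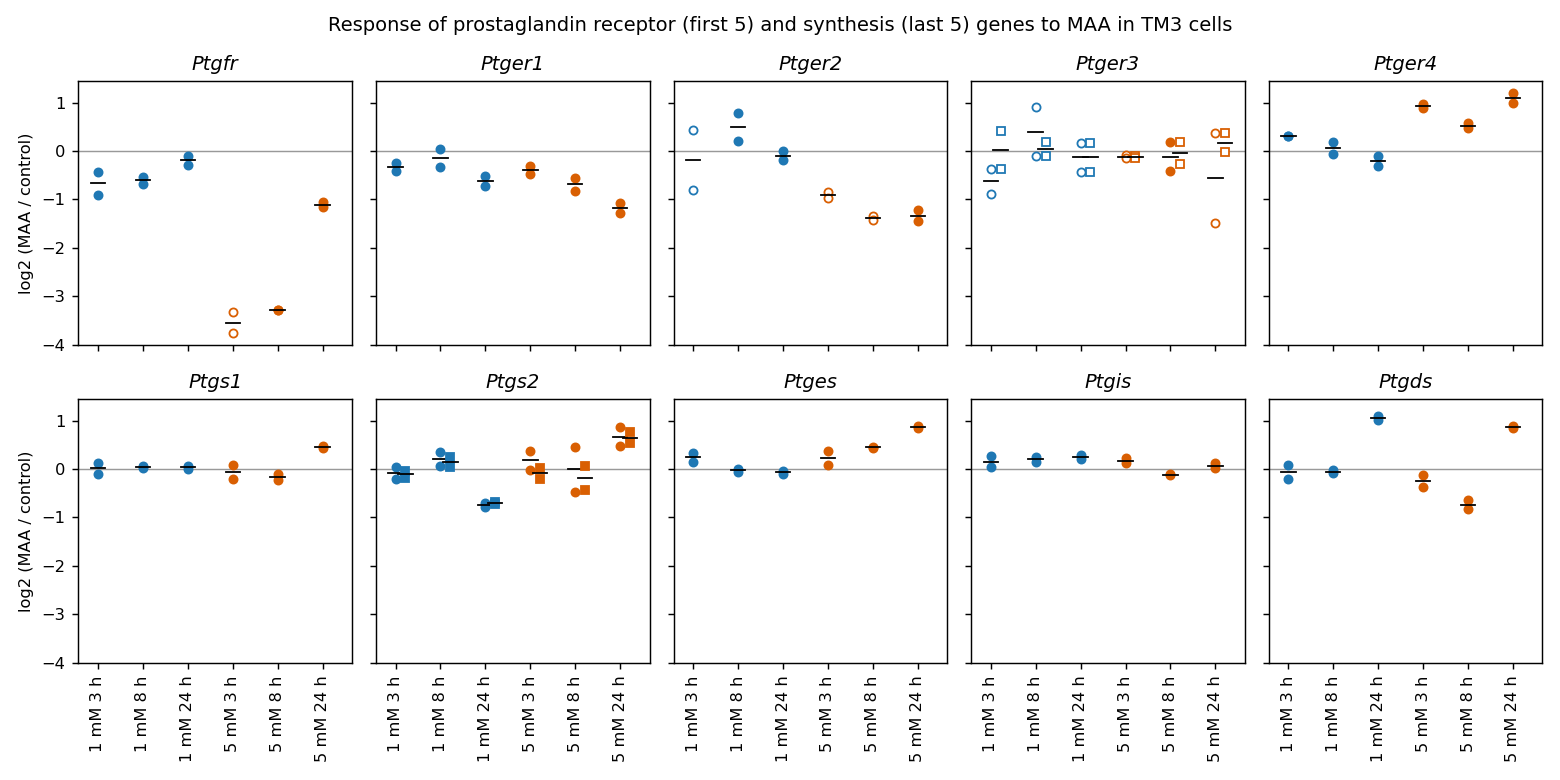
The log2 MAA/control ratio (vertical axis) of the 10 genes in the 6 treatments (horizontal axis), with 1 mM in blue and 5 mM in orange. Points are single arrays, bars are means of 2 arrays, squares are the second probe of Ptger3 and Ptgs2, and open symbols mark treatments in which either channel was not well above background on both arrays. Ptgfr at 5 mM reaches -3.76, and Ptger4 is the only receptor above 0 on both arrays at 5 mM at all 3 times.

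Among the synthesis enzymes the inducible cyclooxygenase Ptgs2 differed most between doses, at 24 h. It lies at chr1:150100031-150108234 and was read by 2 probes. With probe A_51_P254855 the 24 h controls of the 5 mM arrays read 2974 and 4830 against 5409 and 6745 with MAA, and those of the 1 mM arrays read 3002 and 5054 against 1846 and 2937 with MAA. MAA channels lay above the controls at 5 mM and below them at 1 mM, without overlap at either dose, although levels also differed between the array numbers. The ratios were 0.86 and 0.48 at 5 mM (mean 0.67, SE 0.21, adjusted p = 0.049) and -0.70 and -0.78 at 1 mM (mean -0.74, adjusted p = 0.068).

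Probe A_52_P224760 gave 0.65 at 5 mM (SE 0.13, adjusted p = 0.0072) and -0.71 at 1 mM (adjusted p = 0.015), and its 1 mM value met the call limits, which it missed without either of the 1 mM arrays at 24 h (-0.73 and -0.68). The dose difference at 24 h was 1.41 with the former probe (interval 0.71 to 2.12, adjusted p = 0.03) and 1.36 with the latter (interval 0.93 to 1.79, adjusted p = 0.0062). It was lost in 6 and in 2 of the 12 fits without 1 array, with values from 1.22 to 1.60 and from 1.24 to 1.47. At 8 h the 5 mM arrays disagreed in sign for both probes, with 0.45 and -0.47 for the former and 0.07 and -0.44 for the latter. The 24 h response at 5 mM exceeded the 8 h response by 0.84 with A_52_P224760 (adjusted p = 0.033, lost in 9 of the 12 fits without 1 array) and by 0.68 with A_51_P254855 (interval -0.03 to 1.38, adjusted p = 0.25).

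**Figure D3:**
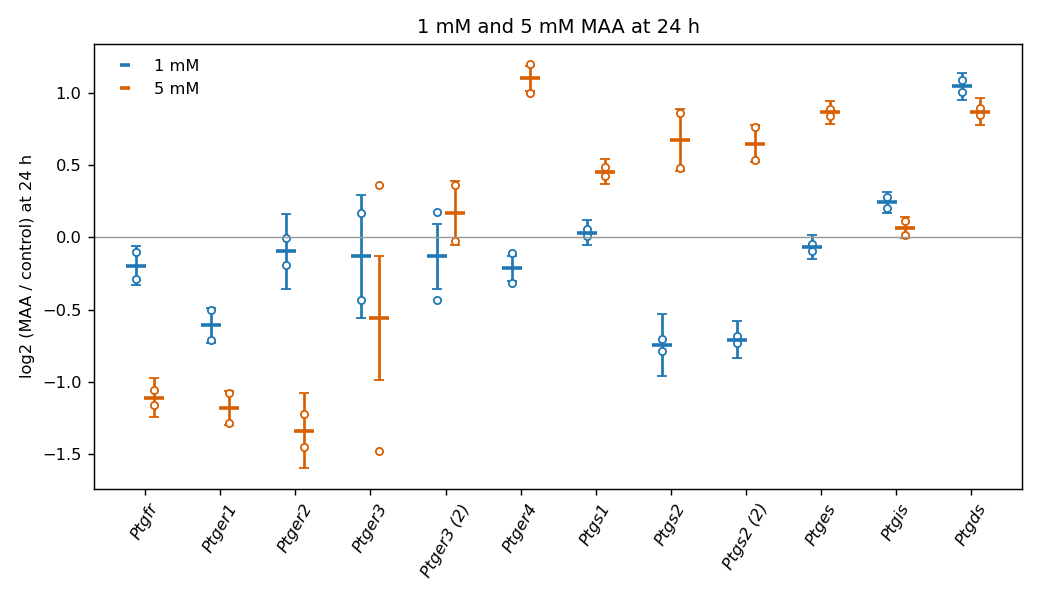
The log2 MAA/control ratio at 24 h (vertical axis) for each member probe, with 1 mM in blue and 5 mM in orange. Open points are single arrays, horizontal marks the mean of 2 arrays, error bars 1 SE of the limma fit, and (2) the second probe of a gene. Both Ptgs2 probes lie above 0 at 5 mM and below 0 at 1 mM, whereas Ptgds lies above 0 at both doses.

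Ptgs1, the broadly expressed cyclooxygenase, was strongly detected in all 24 channels. At 5 mM for 24 h its signals were 34769 and 31150 with MAA against 24836 and 23195 in controls, a rise of 0.46 (arrays 0.49 and 0.43, SE 0.09, adjusted p = 0.0053) that stayed under 2-fold. At 8 h the ratios were -0.22 and -0.11 (adjusted p = 0.21), and the 24 h response exceeded this by 0.62 (interval 0.34 to 0.90, adjusted p = 0.021), a difference lost without any 1 of the 4 arrays compared. At 1 mM its 8 h and 24 h means were 0.04 and 0.03, and the 24 h dose difference of 0.42 (interval 0.14 to 0.70) did not pass (adjusted p = 0.079).

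Ptges, the inducible prostaglandin E synthase, rose with 5 mM MAA. The MAA channels read 145 and 131 at 8 h against 106 and 95.6 in controls, and 144 and 130 at 24 h against 80.3 and 70.4, with no overlap at either time. It rose by 0.45 at 8 h (arrays 0.44 and 0.46, SE 0.08, adjusted p = 0.0042) and by 0.87 at 24 h (arrays 0.84 and 0.89, adjusted p = 2.1e-04), both under 2-fold. At 1 mM it read -0.03 and -0.07 at these times, and the doses differed by 0.48 at 8 h (adjusted p = 0.042, lost in 10 of the 12 fits without 1 array) and by 0.93 at 24 h (interval 0.67 to 1.20, adjusted p = 0.0044). The 5 mM responses at 24 h and 8 h differed by 0.41 (interval 0.15 to 0.68, adjusted p = 0.07), which passed under normexp and loess (0.27, adjusted p = 0.049).

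Ptgds, which makes prostaglandin D, reversed its direction with time at 5 mM. The MAA channels read 88.1 and 107 at 8 h against 156 and 168 in controls, and 287 and 274 at 24 h against 160 and 148. It fell by 0.73 at 8 h (arrays -0.82 and -0.64, SE 0.09, adjusted p = 7.7e-04) and rose by 0.87 at 24 h (arrays 0.85 and 0.89, adjusted p = 3.8e-04), and the responses differed by 1.60 (interval 1.30 to 1.91, adjusted p = 0.0014). With normexp and loess the 8 h value was -0.47. Its 3 h ratios were -0.13 and -0.38. At 1 mM the 8 h ratios were -0.08 and -0.02, and Ptgds rose by 1.05 at 24 h (arrays 1.09 and 1.01, adjusted p = 9.4e-04), past 1.5-fold. Under normexp and loess this call was lost on the fold limit alone (0.55, limma unadjusted p = 5.1e-04). At 24 h the 5 mM minus 1 mM difference was -0.18 with an interval from -0.48 to 0.13 (adjusted p = 0.53). At 8 h it was -0.68 (interval -0.99 to -0.37, adjusted p = 0.019) and was lost without any 1 of those 4 arrays and under normexp and loess (-0.46).

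Ptgis, prostacyclin synthase, gave means between -0.12 and 0.24 over the 6 treatments. Its values at 1 mM were 0.20 at 8 h and 0.24 at 24 h (arrays 0.28 and 0.21, adjusted p = 0.073), and no tested value passed. The 5 mM minus 1 mM difference was -0.32 at 8 h (interval -0.56 to -0.08, adjusted p = 0.1) and -0.18 at 24 h (interval -0.41 to 0.06, adjusted p = 0.39). The former passed with slide as a block (adjusted p = 0.04).

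**Figure D4:**
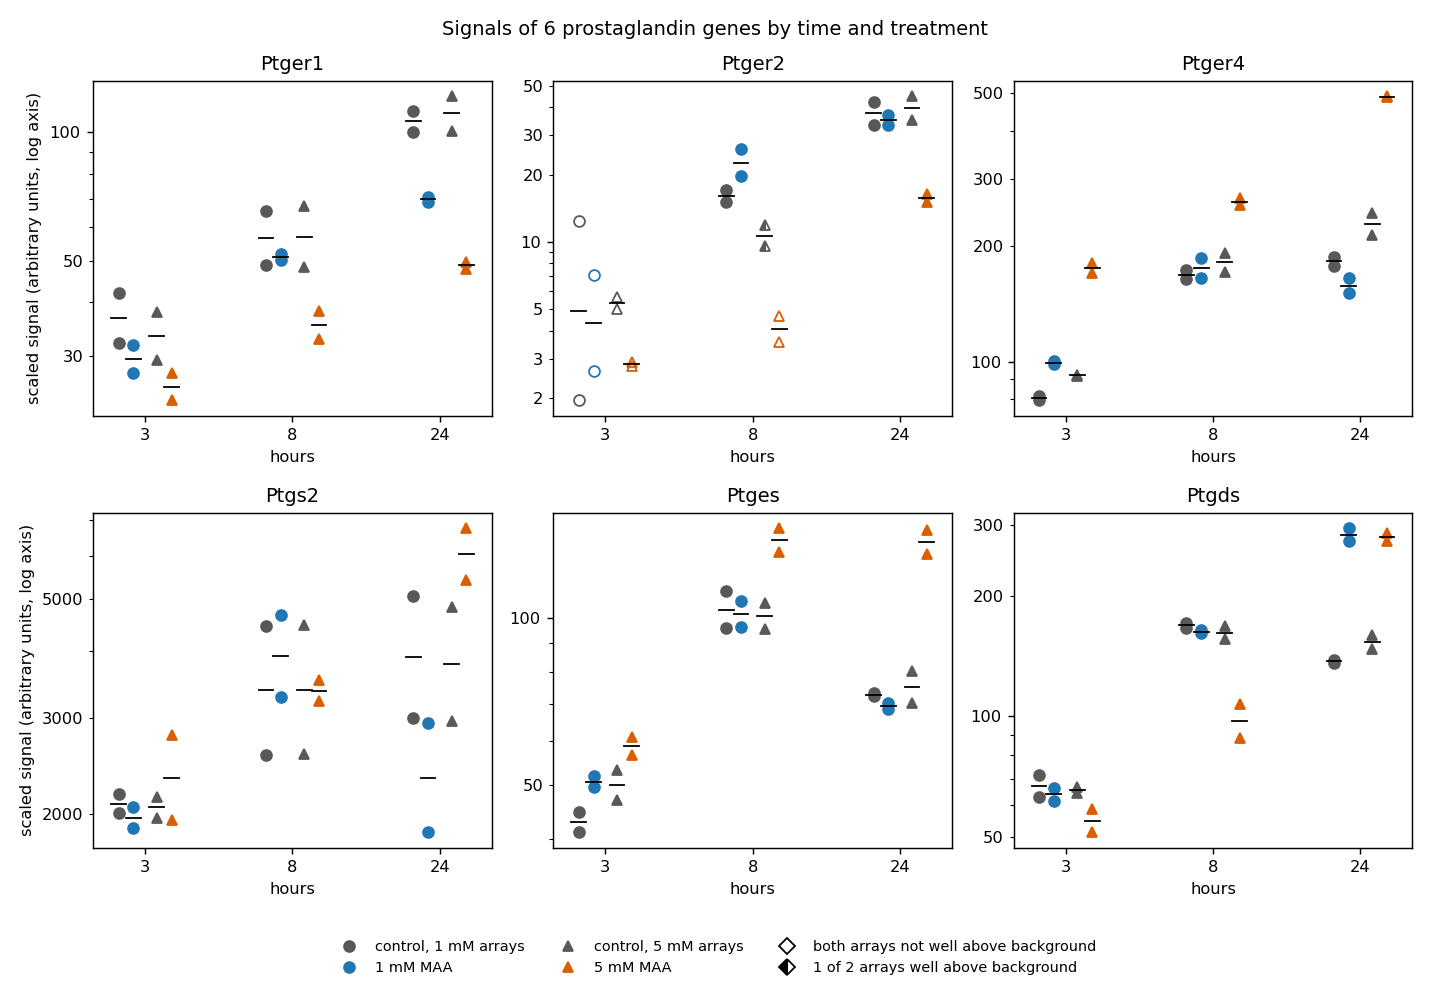
Scaled signals in arbitrary units on log axes against hours of treatment for 6 genes, with symbols as in the plot of Ptgfr signals. The 5 mM points (orange triangles) separate from the controls upward for Ptger4 at all 3 times and downward for Ptger1 at 24 h, and those of Ptgds lie below the controls at 8 h and above them at 24 h.

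Over the 10 genes, read by 1 probe each, 2 fell and 0 rose past 2-fold at unadjusted p under 0.005 with 5 mM for 8 h (Ptgfr and Ptger2), where 2.45% of the 15972 named genes were called lower and 4.07% higher. The Ptger2 call there rests on signals near background, with a limit of at least 1.02-fold lower. At 5 mM for 24 h 3 fell and 1 rose (Ptgfr, Ptger1 and Ptger2, against Ptger4), where 1.69% of genes were called lower and 5.23% higher. At 1 mM, past 1.5-fold, 1 fell at 8 h (Ptgfr) with 0.557% of genes called lower and 2.59% higher. At 1 mM for 24 h 1 fell (Ptger1) and 1 rose (Ptgds) with 0.764% lower and 4.53% higher. By adjusted p under 0.05 at any fold, 4 fell and 2 rose at 5 mM for 8 h, where 16.4% of all genes were lower and 19.2% higher, and 3 fell and 5 rose at 24 h, where the shares were 18% and 18.6%. At 1 mM the same counts were 1 and 0 at 8 h, beside 2.34% and 4.83% of all genes, and 1 and 1 at 24 h, beside 4.58% and 8.9%. With normexp and loess in place of the processed signals, 1 gene was called at 5 mM for 8 h (Ptgfr) and 0 at 24 h. At 1 mM 0 were called at 8 h and 1 at 24 h, which was Ptgs2 (A_51_P254855, -0.70) and neither of the genes called above. Ptgfr, Ptger1, Ptger2 and Ptger4 at 5 mM for 24 h kept unadjusted p under 0.005 in that fit and missed only the fold limit. The differences between treatments passed in 4 of the 10 genes in each of the 3 contrasts, beside 11.7% of all genes for 24 h against 8 h at 5 mM, 12.8% for the doses at 8 h and 10.7% for the doses at 24 h. The genes were chosen with Ptgfr's decrease known, so these counts describe the set and do not compare it with other genes. The median log2 ratio of the 10 genes was -0.14 at 5 mM for 8 h and 0.26 at 24 h, beside -0.04 and 0.03 over all probes. At 3 h the 10 genes ran from -3.54 (Ptgfr) to 0.93 (Ptger4) at 5 mM and from -0.67 to 0.31 at 1 mM.

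Control levels were compared between 24 h and 8 h because the culture itself changes over this time. None of the 10 genes passed an adjusted p of 0.05 by limma, while 7.11% of all genes were higher and 8.48% lower at 24 h. At unadjusted p under 0.05, Ptgfr (0.83), Ptger1 (0.93) and Ptger2 (1.56) were higher and Ptges (-0.47) was lower at 24 h, with adjusted p of 0.054, 0.068, 0.13 and 0.073.

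Other genes of the pathway were read from lists of phospholipases, further synthases and receptors, and degradation and transport. Further lists held lipoxygenases with leukotriene genes, and G proteins with their effector enzymes. Of all 69 genes on these lists, 63 had a probe. In these lists 9 genes were called higher and 2 lower at 5 mM for 24 h, beside 5.23% and 1.69% of all genes. At 5 mM the counts were 6 and 3 at 8 h, beside 4.07% and 2.45%, and 1 and 0 at 3 h, beside 1.91% and 1.73%. At 1 mM they were 8 and 2 at 24 h, beside 4.53% and 0.764%, then 3 and 0 at 8 h, beside 2.59% and 0.557%, and 2 and 0 at 3 h, beside 1.5% and 0.626%. Some calls rest on signals near background, since both channels of both arrays were well above background in 5 of the 9 increases at 5 mM for 24 h.

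Of the other prostanoid receptors, the prostacyclin receptor Ptgir rose at 5 mM by 1.69 at 8 h (SE 0.17, adjusted p = 2.9e-04) and by 1.31 at 24 h, and at 1 mM by 0.77 at 8 h. At 3 h Ptgir rose by 0.84 at 5 mM (adjusted p = 0.01), under 2-fold, and by 0.85 at 1 mM (adjusted p = 0.039), which was called. The thromboxane receptor Tbxa2r fell at 5 mM by 1.06 at 8 h (SE 0.14, adjusted p = 8.4e-04) and by 1.51 at 24 h (adjusted p = 1.8e-04), and at 1 mM by 0.66 at 24 h. The prostaglandin D receptor Ptgdr gave a mean ratio of -2.01 at 5 mM for 24 h and was called. Its MAA channel there was not well above background and its control was on 1 array. The background limit gave no fold for this decrease. Ptgdr rose by 0.89 at 1 mM for 24 h (adjusted p = 0.019). A second Ptgdr probe was called in neither treatment.

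Among synthases, Akr1c18, an aldo-keto reductase that inactivates progesterone and can form prostaglandin F, rose by 2.81 at 5 mM for 24 h (arrays 2.87 and 2.75, SE 0.14, adjusted p = 2.1e-05), with its control well above background on 1 of 2 arrays. Akr1b3, aldose reductase, which also forms prostaglandin F, rose by 1.01 at the same treatment (adjusted p = 4.4e-05). Hpgd, which inactivates prostaglandins, fell at 5 mM for 8 h with ratios of -1.76 and -1.81 (adjusted p = 1e-04). Its MAA channel there was at background and its control was well above background on 1 of 2 arrays, so at least 1.62-fold. Hpgd rose by 1.11 at 1 mM for 24 h (adjusted p = 0.0041). Ptgr1, which acts on the oxidised products, rose by 1.40 at 5 mM for 24 h (SE 0.06, adjusted p = 1.1e-05).

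In the list of lipoxygenases and leukotriene genes 5 of 13 were called higher and 0 lower at 5 mM for 24 h, beside 5.23% and 1.69% of all genes. Of the 5, 2 had both channels well above background on both arrays. The leukotriene enzymes Alox5 (-0.10), Lta4h (0.52) and Ltc4s (0.32) were not called there, although Lta4h rose (limma adjusted p = 3.6e-04) and missed only the fold limit. Alox5ap, the partner protein of 5-lipoxygenase, rose by 2.14 (SE 0.17, adjusted p = 1e-04) and by 1.45 at 1 mM for 24 h. Ltb4r1, the leukotriene B receptor, rose by 1.99 at 5 mM for 24 h (adjusted p = 1.5e-04). Alox12 and Aloxe3, both lipoxygenases, rose by 1.91 and 1.60, each with its control well above background on 1 of 2 arrays, and a second Alox12 probe was not called. The fifth, Alox8, was at background in both channels and was named after its value was seen.

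Downstream of the receptors, the list of G proteins and effector enzymes held 18 genes with a probe. Those called were the adenylyl cyclases Adcy1, Adcy7 and Adcy9, partly in different treatments. At 5 mM 1 was higher and 0 lower at 3 h, beside 1.91% and 1.73% of all genes. The counts were 1 and 1 at 8 h, beside 4.07% and 2.45%, and 0 and 0 at 24 h, beside 5.23% and 1.69%. At 1 mM they were 1 and 0 at each time, beside 1.5% and 0.626%, 2.59% and 0.557%, and 4.53% and 0.764%. Adcy1 rose by 2.14 at 5 mM for 8 h (SE 0.11, adjusted p = 1.6e-05) and by 1.98 at 1 mM for 24 h (adjusted p = 1.6e-04), which its 2 other probes did not show as calls. At 5 mM for 24 h Adcy1 rose by 0.48 (limma adjusted p = 0.011) and was not called. It was also called at 1 mM for 3 h (0.63) and 8 h (1.57). Adcy7 fell by 1.18 at 5 mM for 8 h (adjusted p = 4.3e-05), and Adcy9 rose by 1.16 at 5 mM for 3 h (adjusted p = 4.3e-04). Among the phospholipases Pla2g10, Pla2g2e and Pla2g4c were each called in 1 treatment, and none was well above background in both channels of both arrays there.

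**Figure D5:**
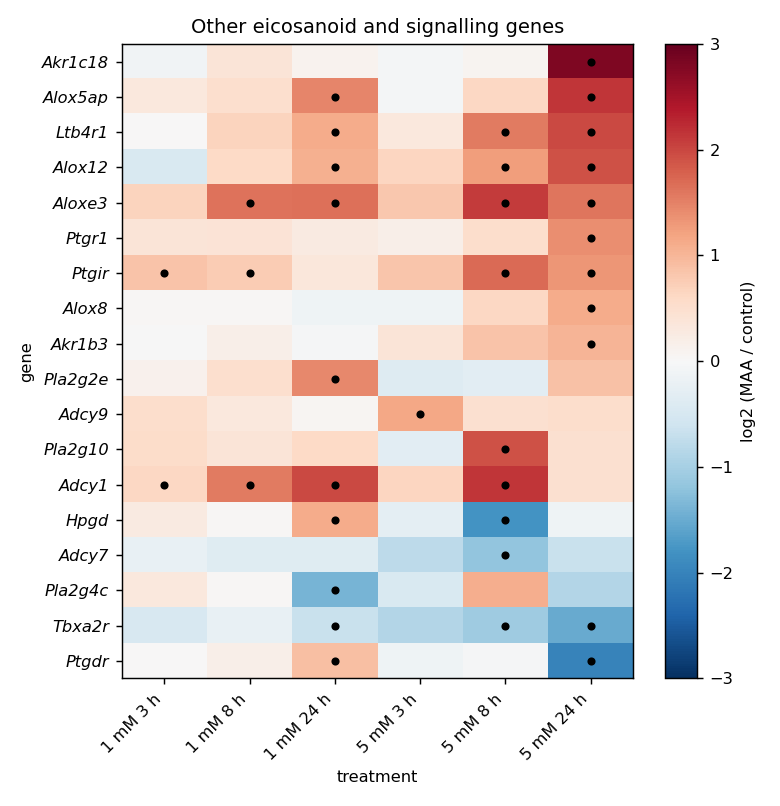
Heat map of the mean log2 MAA/control ratio (colour, 2 arrays a treatment) of the 18 genes on the pathway lists that were called in any of the 6 treatments, ordered by the value at 5 mM for 24 h. Dots mark called treatments, and background flags are not drawn. Akr1c18 reads 2.81 there and Tbxa2r -1.51, while Ptgdr, at the bottom, had its MAA channel at background.

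Likeness to Ptgfr over the 12 arrays was sought among 1339 probes with a gene name that varied by at least 1 log2 unit between treatments. Each was well above background in at least 1 channel of every array, so the other channel could be at background. For Ptgfr itself both MAA channels were so at 5 mM for 3 h, and 1 of 2 at 8 h. The most alike were probes of Kif5c (Pearson r = 0.99), Atoh8, Scx, Zfp467 and Lrfn4 (all between 0.97 and 0.98). Kif5c, a kinesin motor, read -1.92, -1.86 and -0.89 at 5 mM for 3, 8 and 24 h, and Scx, a tendon transcription factor, read -1.22, -0.98 and -0.29. For Ptgs2 the likeness was lower, led by Styk1 (0.85), the neutrophil chemokine Cxcl3 (0.83) and the protease Plau (0.83), then Efnb2 (0.78) and Calcrl (0.75). Cxcl3 read 3.20 at 5 mM and 0.12 at 1 mM for 24 h. These values describe arrays whose controls at a time may be common to both doses, and the 3 h arrays that the choice of Ptgfr used are among the 12.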

How the data were processed

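RNA of TM3 cells had been compared on 12 two-colour Agilent whole mouse genome arrays on 3 slides of 4 arrays. Per the file headers, the authors extracted spot intensities with Feature Extraction, subtracted a detrended background and normalized the dyes within each array by linear and LOWESS steps. The authors also deposited log10 ratios of the same arrays, used as an alternative. Methods further name Rosetta Resolver, for which limma 3.58.1 in R 4.3.3 stood in.

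Here log2 MAA/control was taken from the processed intensities of 41174 probes, without centring. Outlier spots (124 to 208 of 45018 an array) were left out and repeated spots averaged. All 12 arrays entered 1 fit with a coefficient per treatment. A probe was called at unadjusted p under 0.005 and over 2-fold (5 mM) or 1.5-fold (1 mM), and Benjamini-Hochberg adjusted p over all probes is given beside it. "Rose" and "fell" mean an adjusted p under 0.05. Scaled signals are channels after Aquantile normalization between arrays. Control channels of the same time and number were averaged. Where a channel was not well above background on both arrays, a fold is a lower limit, set by each array's dimmest probe that passed the background test. Fold limits and p-values cover the spread between 2 pools only.

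Probes carry accessions and not symbols, so members were matched through RefSeq accessions (GRCm38.p6), where 22072 probes had a symbol. For genes with several probes the one with the highest mean signal counts. Sequences are from RefSeq and, for probes, from the study's array annotation. Lists, members and tests were chosen with earlier results of these data known. Genes of the pathway lists were named where called in any treatment, up to 4 a list. The fit was tested on simulated data. Alternatives covered background correction, scaling, centring, dim probes, blocks, subsets of arrays and single arrays left out. Figures used matplotlib.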

Additional observations from a re-analysis of the deposited data

Results flagged for a closer look

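Differences between treatments that passed an adjusted p of 0.05 are listed here as values of limma contrasts on the log2 scale. At 5 mM the response at 24 h differed from that at 8 h by 2.17 for Ptgfr, 1.60 for Ptgds, 0.84 for the Ptgs2 probe A_52_P224760, 0.62 for Ptgs1 and 0.57 for Ptger4. The 8 h difference of 5 mM minus 1 mM was -2.68 for Ptgfr, -1.88 for Ptger2, -0.68 for Ptgds and 0.48 for Ptges. At 24 h the same difference was -0.91 for Ptgfr, 1.31 for Ptger4, 1.41 and 1.36 for the Ptgs2 probes A_51_P254855 and A_52_P224760, and 0.93 for Ptges. Leaving out 1 array ended 9 of these, as given beside each value above for Ptgfr at 24 h, Ptger2, Ptges at 8 h, Ptgds at 8 h, Ptgs1, Ptger4 between times and the Ptgs2 probes. Ptger2 at 8 h rests on 5 mM channels that were not well above background.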

How the results depend on the processing

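No value changed to the opposite side of 0 past its threshold under any alternative. The numbers of the 10 genes called were 2, 4, 1 and 2 at 5 mM for 8 h, 5 mM for 24 h, 1 mM for 8 h and 1 mM for 24 h. With normexp background correction and loess they were 1, 0, 0 and 1, the last being Ptgs2 and neither Ptger1 nor Ptgds. The offset of 50 in that correction shrinks the ratios of dim probes, so fold limits are harder to reach for them. Ptgfr then gave -1.53 at 5 mM for 8 h, and -0.73 at 5 mM for 24 h and -0.41 at 1 mM for 8 h, both under the fold limits. This correction called 1030, 881, 398 and 500 of all probes in place of 2284, 2315, 977 and 1925. Centring gave 0 genes at 1 mM for 8 h (Ptgfr -0.58) and 1 at 1 mM for 24 h, slide as a block 0 (Ptgfr -0.59) and 1, and arrays of 1 concentration alone 0 at 1 mM for 8 h (Ptgfr -0.60, past the fold limit but not the p limit). The latter fit kept 2 genes at 1 mM for 24 h, with Ptgs2 gained and Ptger1 lost. Leaving out dim probes gave 1 gene at 5 mM for 8 h, since Ptger2 was not tested. With the replicate block, which is also the dye orientation, 0 genes were called at 1 mM for 8 h (Ptgfr -0.60, likewise). Under this block 5 differences among the 10 genes passed that did not pass in the main fit. They were Ptger4 (0.47) and Ptgis (-0.32) between doses at 8 h, Ptger2 (-1.24) and Ptgs1 (0.42) between doses at 24 h, and Ptges (0.41) between times. Those of Ptger4, Ptgis, Ptger2 and Ptges also passed under some other alternative. The array numbers were not taken as pairs in the main fit. The correlation of their deviations between treatments ran from 0.075 to 0.51 (median 0.38 over 15 pairs of treatments), always above 0. The main contrasts and their intervals therefore leave out what arrays of the same number share, including controls that may be common to both doses.

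Without single arrays the counts were 1 to 2 genes at 5 mM for 8 h, 3 to 4 at 5 mM for 24 h, 0 to 1 at 1 mM for 8 h and 1 to 3 at 1 mM for 24 h. Ptgfr at 1 mM for 8 h ranged from -0.68 to -0.53, and its 24 h dose difference from -1.01 to -0.82. Arrays whose absence ended the former call were both of 1 mM 8 h, 5 mM 8 h and 5 mM 24 h. The latter was lost without any 1 of the 8 arrays at 8 h or 24 h. The cause of these changes was not tested beyond the fewer arrays of each fit.

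The Ptgfr control difference between 24 h and 8 h passed under quantile scaling (0.84), with the 1 mM arrays' controls alone (0.78), and without either 3 h control (0.83), and ranged from 0.77 to 0.90 without 1 control. With 1 of the 8 h or 24 h controls left out, 0 probes passed in that comparison, in place of 5230. Slide as a block for the controls and contrasts, and within-slide values, were added after seeing the data. Signals near background limit Ptger2, Ptger3 and the early Ptgfr values.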
